A study of Mus musculus with 8 samples.

Results

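The cells described here are the Omd Lox Frzb chondrocytes of the mouse intervertebral disc at postnatal day 10 (P10), 1408 of 6999 kept P10 cells and of 13480 kept cells in both libraries. They were chosen by unique molecular identifier (UMI) counts per cell. A cell had to hold at least 2 UMIs in at least 3 of the 5 genes Omd, Lox, Frzb, Efemp1 and Cxcl14, and in more of these than in any of 3 other sets of 5 genes. The other sets were the Ucma set (Ucma, Penk, Calml3, Ptx3, Islr), the hypertrophic set (Col10a1, Ihh, Panx3, C1qtnf3, Epyc) and the tendon set (Thbs4, Tnmd, Mfap4, Cpz, Sema3b). A member also needed at least 5 UMIs of Acan and fewer than 5 of Krt8 and of Top2a, Mki67 and Birc5 together. Levels of these genes therefore describe the choice and are not results.

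Discs of lumbar levels 1 to 6 and tail levels 5 to 9 came from mice of the genotype Tagln-CreERt2;R26tdTomato, at P10 or at 8 weeks. All of them, at both ages, carried both alleles and received tamoxifen at P5; no mice without Cre or tamoxifen were analysed here. The Cre is expressed under control of Tagln, the gene of the actin-binding protein transgelin, and Cre activity switches on the tdTomato reporter at Rosa26. GEO has 4 samples for either age, whose cells were deposited together in 1 matrix and could not be traced to a sample. Either age was therefore treated as 1 library with no replicates, so the values carry no p-values, and intervals are exact 95% intervals that cover counting error only. Age and library cannot be told apart.

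Chondrocyte-like cells of the disc lie in the cartilage endplate and the inner annulus fibrosus, where they build a matrix of type II collagen fibrils and the proteoglycan aggrecan. Small leucine-rich proteoglycans such as osteomodulin, the product of Omd, bind collagen fibrils, and lysyl oxidase, the product of Lox, cross-links collagen and elastin. Frzb encodes a secreted Wnt antagonist, Efemp1 the matrix glycoprotein fibulin-3, Cxcl14 a chemokine, and A2m a broad inhibitor of proteases.

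The label chondrocyte was checked against 14 chondrocyte markers, of which Acan was part of the rule. All 14 were detected in the members, at a summed level of 141390 counts per 1000000 UMIs (CPM), against 19778 CPM in the tendon-set cells and 9622 CPM in leukocytes of the same library. Col2a1, the gene of type II collagen, stood at 101500 CPM in the members, against 11340 CPM in tendon-set cells and 6448 CPM in leukocytes. Hapln1, which links aggrecan to hyaluronan, stood at 2193 CPM in the members, against 283 and 112 CPM, and Col9a1, a chain of type IX collagen, at 4133 CPM, against 324 and 435 CPM. These levels did not go against the label.

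Members made up 20.1% of kept P10 cells (interval 19.2 to 21.1%). Omd stood at 1532 CPM in the members, against 229 CPM in Ucma-set, 135 CPM in hypertrophic-set and 31.9 CPM in tendon-set cells. Lox stood at 1263 CPM in the members, against 31.9, 29.5 and 337 CPM in the same 3 classes. Frzb stood at 696 CPM in the members, against 51.2, 60.0 and 10.3 CPM. The higher levels of these rule genes in the members follow from the choice. Omd was also present in both other chondrocyte classes, and Lox in the tendon-set cells. Efemp1 stood at 303 CPM in the members, against 36.8, 2.69 and 7.68 CPM. Cxcl14 stood at 609 CPM in the members, against 149, 7.76 and 119 CPM. The rule did not use A2m, the sixth marker given for these cells. Its level was 146 CPM in the members (interval 142 to 150), against 26.2 CPM in Ucma-set, 9.74 CPM in hypertrophic-set and 1.55 CPM in tendon-set cells, and it was detected in 663 members (47.1%). With each cell thinned to 2000 UMIs, 16.8% of members had an A2m UMI, against 1.32% of leukocytes, a cell type that should lack it. Of the 84 P10 leukocytes, 8 had fewer than 2000 UMIs and were left out, so the leukocyte share rests on few cells.

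**Figure D1:**
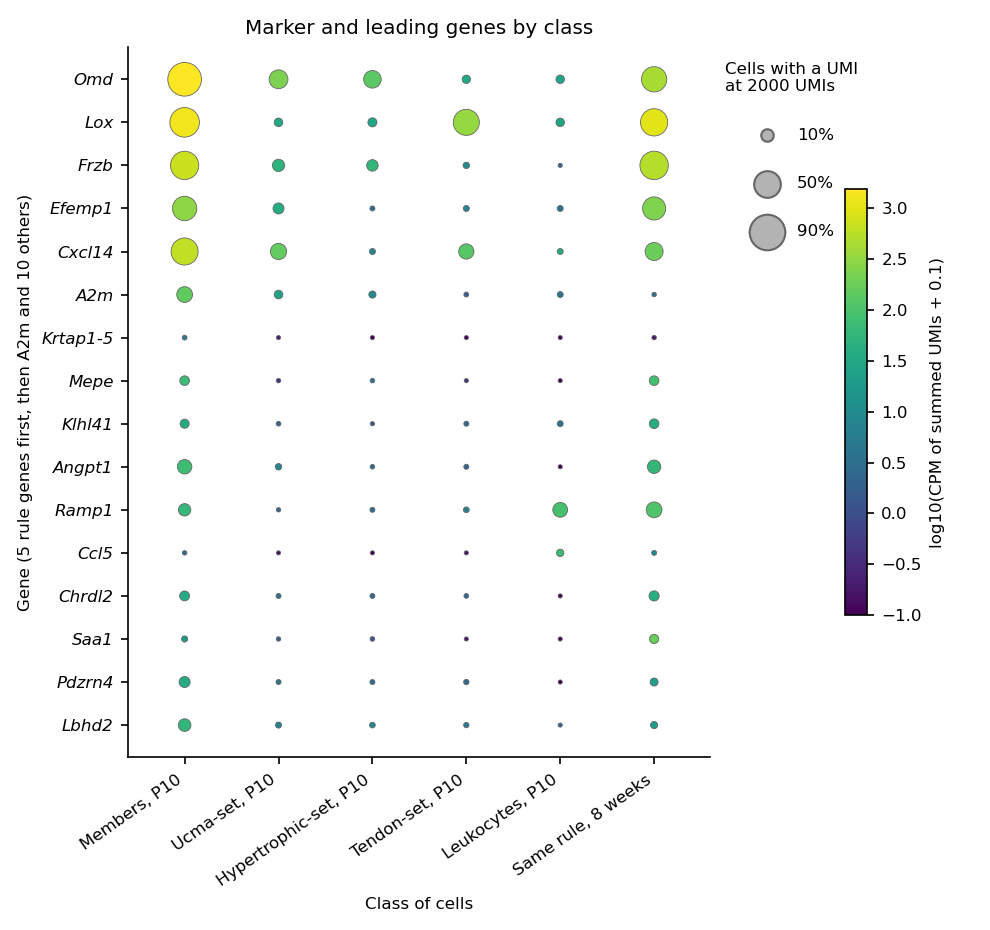
Levels of the 5 rule genes, of A2m and of the 10 genes with the highest smallest lower bound over the 3 P10 classes (rows), in the members, the 3 other P10 classes, P10 leukocytes and the 8-week cells under the same rule (columns). Colour gives log10 of CPM plus 0.1 and dot size the percent of cells with a UMI after thinning to 2000 UMIs; A2m is high at P10 and nearly absent at 8 weeks, while Angpt1, Ramp1 and Chrdl2 are seen at both ages.

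Near the thresholds, 172 members had 3 of the 5 genes, 466 had 4 and 770 had all 5. Members with 3 of the genes had 213 CPM of Frzb, and 42 cells just outside, with 2 of the genes, had 78.2 CPM. A further 335 cells reached 3 genes but tied with another set, with 242 CPM of Frzb. The lowest Acan count in a member was 7 UMIs and the median 79. The Acan minimum alone removed 6 cells. Median depth was 23016 UMIs per member, against 17984 per Ucma-set, 34424 per hypertrophic-set and 14502 per tendon-set cell.

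The stretches before the start of 3 marker genes and of Mepe, a gene that led the comparison with Ucma-set chondrocytes, are shown so that a reader can see the sequence at these genes. Each is the 250 bases before the RefSeq transcription start in GRCm38.p6, written 5′ to 3′ on the gene's strand. Omd lies at chr13:49582212-49582461 on the plus strand, Efemp1 at chr11:28852955-28853204 on the plus strand, Cxcl14 at chr13:56296552-56296801 on the minus strand and Mepe at chr5:104325079-104325328 on the plus strand. Capitals mark matches, on either strand, to ACAAAG (SOX core, in 16.5% of 32851 mouse promoter windows of this length), TATAAA (12.4%), TGACTCA (AP-1, 4.46%), TGTGGT (RUNX core, 14.0%) or GGGCGG (GC box, 32.7%).
Omd: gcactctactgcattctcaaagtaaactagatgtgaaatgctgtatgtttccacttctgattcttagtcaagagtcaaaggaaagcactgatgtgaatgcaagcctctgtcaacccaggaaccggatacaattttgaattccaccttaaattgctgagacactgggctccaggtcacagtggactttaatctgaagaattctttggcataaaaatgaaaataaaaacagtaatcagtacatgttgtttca
Efemp1: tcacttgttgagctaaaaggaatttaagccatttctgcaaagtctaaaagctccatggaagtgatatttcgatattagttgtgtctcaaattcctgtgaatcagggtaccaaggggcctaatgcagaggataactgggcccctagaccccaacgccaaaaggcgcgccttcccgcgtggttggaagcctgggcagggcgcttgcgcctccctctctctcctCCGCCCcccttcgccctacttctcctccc
Cxcl14: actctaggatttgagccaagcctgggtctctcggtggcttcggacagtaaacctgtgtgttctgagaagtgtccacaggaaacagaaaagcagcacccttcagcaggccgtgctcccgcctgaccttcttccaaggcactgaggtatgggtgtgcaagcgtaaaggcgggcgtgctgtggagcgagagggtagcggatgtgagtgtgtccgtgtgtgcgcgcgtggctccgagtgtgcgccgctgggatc
Mepe: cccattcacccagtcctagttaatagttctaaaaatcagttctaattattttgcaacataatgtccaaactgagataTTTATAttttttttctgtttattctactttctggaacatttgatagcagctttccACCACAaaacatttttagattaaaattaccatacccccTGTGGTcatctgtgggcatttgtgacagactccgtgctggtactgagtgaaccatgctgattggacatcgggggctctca
Efemp1 held 1 GC box on the minus strand, 29 bases before the start. Mepe held a RUNX core on the minus strand 118 bases before the start and another on the plus strand at 80 bases, and TATAAA on the minus strand at 173 bases. The Omd and Cxcl14 windows held none of the 5 motifs. A match is a string of letters and was not tested as a binding site.

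The first question was which genes outside the rule were higher in the members than in each of the 3 other P10 classes. Of 9310 genes compared in all 3, 109 were at least 2-fold higher in the members in all 3 comparisons (1.17%) and 52 at least 2-fold lower in all 3 (0.559%). Unlike the other gene totals, these 9310 leave out mitochondrial, ribosomal protein, hemoglobin, Y-linked and predicted genes, Xist and Tsix. Against all other kept P10 cells, 248 of 13080 genes were at least 2-fold higher in the members (1.9%) and 2474 lower (18.9%). Angpt1, which encodes angiopoietin-1, a ligand of the Tie2 receptor, stood at 76.5 CPM in the members and was detected in 914 of them, against 8.43 CPM in Ucma-set, 2.46 CPM in hypertrophic-set and 2.22 CPM in tendon-set cells. Its log2 ratio was 3.18 (3.00 to 3.37) over Ucma-set, 4.96 (4.45 to 5.52) over hypertrophic-set and 5.11 (4.59 to 5.68) over tendon-set cells. Pdzrn4 was detected in 594 members and stood at 36.6 CPM, against 4.37, 3.17 and 2.36 CPM. These were spread over many cells: the 14 members with the most UMIs held 5.54% of the Angpt1 UMIs and 9.26% of the Pdzrn4 UMIs.

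Ramp1, a partner protein of the calcitonin receptor-like receptor, stood at 60.2 CPM in 562 members, against 2.42 CPM in Ucma-set, 3.01 CPM in hypertrophic-set and 6.13 CPM in tendon-set cells. P10 leukocytes had 90.2 CPM of Ramp1, while the summed leukocyte markers stood at 12.7 CPM in the members and 9957 CPM in leukocytes. Chrdl2, a secreted antagonist of bone morphogenetic proteins (BMPs), stood at 37.5 CPM in 396 members, against 4.18, 2.53 and 2.44 CPM. Klhl41, known from skeletal muscle, stood at 36.1 CPM in 349 members, against 1.92, 1.03 and 2.36 CPM. Lbhd2 stood at 57.6 CPM in 517 members, against 7.14, 8.32 and 4.95 CPM. All of these levels were at least 6 times as high in the members as in any of the 3 classes.

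The other 4 of the 10 leading genes rested on fewer cells. Mepe, which encodes a phosphoglycoprotein of mineralised matrix, stood at 69.7 CPM in 254 members, and 14 members held 48.6% of its UMIs. Without those 14 cells its level was 36.2 CPM, against 0.283 CPM in Ucma-set cells. Saa1, an acute-phase protein, was found in 48 members, 14 of which held 90.2% of its UMIs. Krtap1-5 was found in 22 members and Ccl5, a chemokine of lymphocytes, in 11, so their ratios describe few cells. Saa1 and Saa2 are near-identical copies whose reads the counting may have split.

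The second comparison set the members against 1688 Ucma-set chondrocytes. The members had 402 of 10907 genes at least 2-fold higher (3.69%) and 698 at least 2-fold lower (6.4%). The median gene stood at -0.23 on the log2 scale, and changes are read relative to it. With ratios scaled to that median gene, 584 genes were higher and 462 lower, so which direction had more genes turns on the scaling.

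Several protease inhibitors and collagens were higher in the members. Of 15 protease inhibitors, 5 were at least 2-fold higher and 2 lower (median log2 ratio 0.16). Timp3, an inhibitor of matrix metalloproteinases that binds the matrix, stood at 1298 CPM in the members and 205 CPM in Ucma-set cells, a 6.33-fold difference (log2 ratio 2.66, interval 2.62 to 2.70). Serpine2 stood at 151 CPM in the members and 42.6 CPM in Ucma-set cells. Of 15 fibrous and pericellular collagens, 6 were higher and 3 lower (median 0.63). Col8a1, of short-chain collagen VIII, stood at 61.7 CPM in the members and 7.83 CPM in Ucma-set cells. Col5a2 stood at 299 CPM in the members and 70.3 CPM in Ucma-set cells. Col1a1, of type I collagen, stood at 2077 CPM in the members and 760 CPM in Ucma-set cells. Its level was 770 CPM in the 756 members without any tendon-set gene. In the 172 members with 3 genes of their own set it was 5941 CPM. The Ucma-set cells were not restricted by tendon-set genes in that way, so 770 and 760 CPM come from unlike sets. Chad, which encodes the cartilage protein chondroadherin, was 5.99-fold higher in the members. Cartilage matrix genes were not split in this way: of 19, Matn1 was at least 2-fold higher and Matn4 at least 2-fold lower, with a median of -0.04.

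The genes of mineralised tissue were higher in the members than in Ucma-set cells. All 5 osteoblast markers compared were at least 2-fold higher (median 3.90), and their summed level was 412 CPM in the members and 24.8 CPM in Ucma-set cells. Ibsp, which encodes bone sialoprotein, stood at 354 CPM in the members and 17.9 CPM in Ucma-set cells. Dmp1, a matrix protein known from osteocytes, stood at 21.5 CPM in the members and 1.45 CPM in Ucma-set cells. Among the 565 members with at least 3 Ucma-set genes, 6 cells held 46.94% of the Dmp1 and 35.15% of the Ibsp UMIs. These shares describe that group and not all members. Mepe, Ibsp, Dmp1 and Spp1 lie within chr5:104202613-104441050 (mm10), and Spp1, the gene of osteopontin, was 3.31-fold higher in the members. Members with at least 10 UMIs of the osteoblast markers numbered 203 (14.4%), against 8 Ucma-set cells (0.474%). Bglap and Bglap2 are near-identical copies, so their separate values are uncertain.

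Some growth factor and hedgehog genes were lower in the members, although the growth factor lists were mixed. Of 11 genes of TGF-beta and BMP ligands 3 were at least 2-fold higher and 3 lower (median -0.33), and of 13 genes of the insulin-like growth factor axis 2 were higher and 3 lower (median -0.30). Igf1, the gene of insulin-like growth factor 1, stood at 8.33 CPM in the members and 129 CPM in Ucma-set cells (log2 ratio -3.96, -4.14 to -3.78). Bmp7 stood at 1.78 CPM in the members and 21.4 CPM in Ucma-set cells. Of 11 hedgehog and PTHrP genes, 1 was at least 2-fold higher and 4 lower (median -0.28). The 4 were the hedgehog targets Ptch1, Hhip and Gli1 and the gene of parathyroid hormone-related protein, Pthlh. Ptch1 stood at 16.8 CPM in the members and 57.2 CPM in Ucma-set cells, and Pth1r, the receptor of parathyroid hormone-related protein, was the gene that was higher (307 CPM in the members and 127 CPM in Ucma-set cells). Mgp, an inhibitor of calcification, stood at 590.5 CPM in the members and 2424 CPM in Ucma-set cells, and the gelatinase gene Mmp2 at 90.6 CPM in the members and 451 CPM in Ucma-set cells. Scube2, a factor that releases hedgehog from cells, stood at 4.00 CPM in the members and 50.9 CPM in Ucma-set cells. Among the lowest genes, Selp is an endothelial and platelet gene. The 4 endothelial markers summed to 3.89 CPM in the members and 19.4 CPM in Ucma-set cells, and the part of a few such cells in the Selp difference was not tested.

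The next comparison set the members against 362 hypertrophic-set chondrocytes. The members had 875 of 10122 genes at least 2-fold higher (8.64%) and 1209 lower (11.9%), with a median gene at -0.28. Scaled to the median gene, the counts were 1212 higher and 639 lower, and without the 20 most abundant genes 1055 and 835. Srpx2, a secreted sushi-repeat protein, stood at 369.5 CPM in 1379 members and 5.39 CPM in hypertrophic-set cells (log2 ratio 6.10, 5.76 to 6.47). Pcsk5, a proprotein convertase, stood at 71.8 CPM in the members and 0.871 CPM in hypertrophic-set cells, and Grem1, a secreted BMP antagonist, at 47.4 CPM in the members and 0.554 CPM in hypertrophic-set cells. These 3 genes were all but missing from the hypertrophic-set cells, although those were sequenced more deeply.

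Over hypertrophic-set cells, inhibitors of proteases and of Wnt, and Wnt receptors, were more often higher than lower in the members. Of 15 protease inhibitors 10 were at least 2-fold higher and 1 lower (median 1.40). Of 13 Wnt receptors 7 were higher and 0 lower (median 1.17), and of 6 further Wnt inhibitors 4 were higher and 0 lower (median 3.30). Wnt ligands and enhancers ran otherwise: of 4, 0 were higher and 3 lower (median -2.35). The 11 TGF-beta and BMP ligands were mixed, with 2 higher and 4 lower. Their median of -0.34 was near that of all genes compared (-0.28). Wif1, a secreted Wnt inhibitor, stood at 286 CPM in the members and 12.8 CPM in hypertrophic-set cells. Bmp3 stood at 50.04 CPM in the members and 1.35 CPM in hypertrophic-set cells. Igfbp4, which binds insulin-like growth factors, stood at 205 CPM in the members and 12.8 CPM in hypertrophic-set cells. Decorin (Dcn), a small leucine-rich proteoglycan, stood at 1908 CPM in the members and 145 CPM in hypertrophic-set cells, and 6 of 10 genes of that family outside the rule were higher and 2 lower (median 1.26). Fibrous and pericellular collagens were higher in 8 of 15 and lower in 0 (median 1.30). The Wnt lists differed over the other P10 classes. Over Ucma-set cells, 2 of 8 Wnt inhibitors were higher and 3 lower (median -0.68), and 3 of 15 Wnt receptors higher and 0 lower (median -0.05). Over tendon-set cells, 2 of 9 Wnt inhibitors were higher and 5 lower (median -1.12), and 1 of 14 Wnt receptors higher and 5 lower (median -0.12).

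Of 10 hypertrophic cartilage genes outside the rule, 6 were at least 2-fold lower and 1, Ibsp, higher (median -1.77). Alpl, tissue-nonspecific alkaline phosphatase, stood at 60.0 CPM in the members and 385 CPM in hypertrophic-set cells, while Ibsp stood at 354 CPM in the members and 115 CPM in hypertrophic-set cells. Ppa1, inorganic pyrophosphatase 1, stood at 192 CPM in the members and 5043 CPM in hypertrophic-set cells. The citrate transporter gene Slc13a5 stood at 1.84 CPM in the members and 105 CPM in hypertrophic-set cells. Fxyd2, a regulator of the sodium pump, stood at 11.5 CPM in the members and 880 CPM in hypertrophic-set cells. Comp, the cartilage oligomeric matrix protein, was 4.64-fold lower in the members than in hypertrophic-set cells.

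The fourth comparison set the members against 856 tendon-set cells. The members had 1138 of 10268 genes at least 2-fold higher (11.1%) and 1520 lower (14.8%), with a median gene at -0.18. Scaled to the median gene, the counts were 1408 higher and 1189 lower, and without the 20 most abundant genes 1478 and 1126. Cartilage matrix genes were at least 2-fold higher in 15 of 19 and lower in 2, Matn2 and Matn4 (median 2.95). Matn1, a cartilage matrilin, stood at 271 CPM in the members and 6.72 CPM in tendon-set cells (log2 ratio 5.33, 5.04 to 5.65). Mia, a small protein secreted by chondrocytes, stood at 1256 CPM in the members and 55.4 CPM in tendon-set cells. Fibrous and pericellular collagens showed the reverse, with 0 of 15 higher and 13 lower (median -2.55). Col1a1 stood at 2077 CPM in the members and 80670 CPM in tendon-set cells. Comp differed little, at 2087 CPM in the members and 2151 CPM in tendon-set cells.

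Of 16 tendon and annulus transcription factors, 3 were higher and 12 lower in the members (median -2.06). Scx, the tendon factor scleraxis, stood at 9.96 CPM in the members and 238 CPM in tendon-set cells. Kera, the proteoglycan keratocan, stood at 0.760 CPM in 8 members and at 104 CPM in tendon-set cells. Adamts2, which trims procollagens, stood at 3.59 CPM in the members and 274 CPM in tendon-set cells. Of 15 matrix proteases 1 was higher and 9 lower (median -1.70). A2m and Timp3 were 94.3-fold and 23.9-fold higher in the members, while the protease inhibitor list as a whole had 7 of 15 higher and 6 lower (median 0.46).

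**Figure D2:**
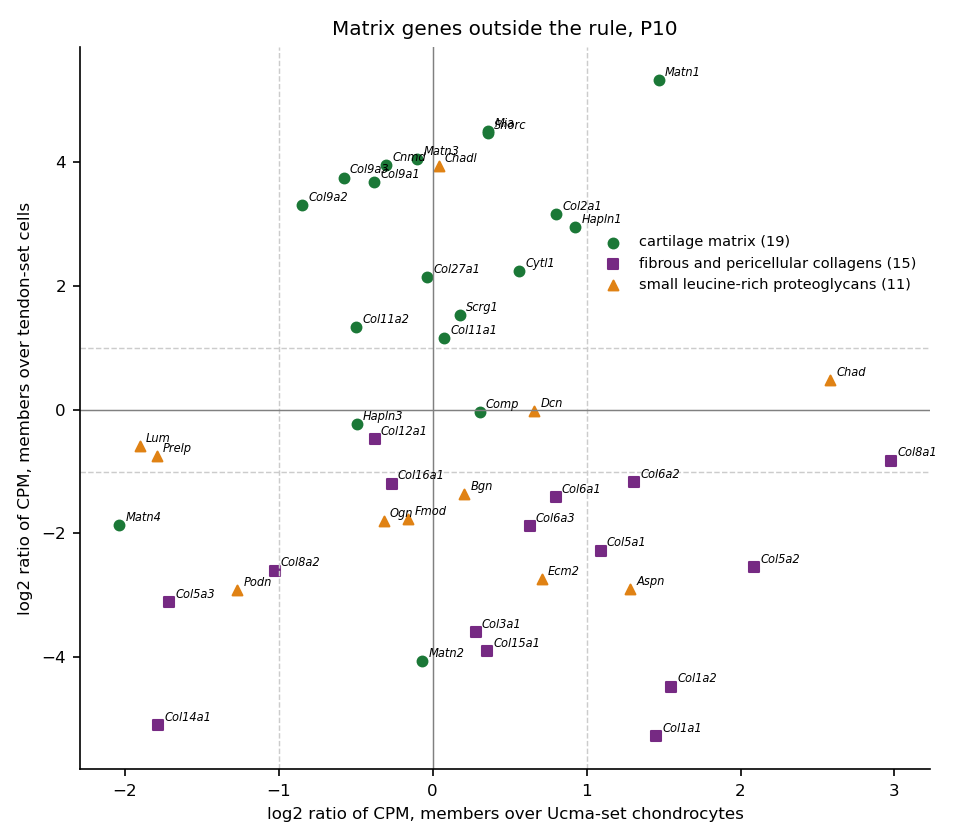
Log2 ratios of CPM for matrix genes outside the rule, members over Ucma-set chondrocytes (x axis) against members over tendon-set cells (y axis), with dashed lines at 2-fold; the comparisons share the members. Cartilage matrix genes (circles) sit near 0 on the x axis and mostly above 2-fold on the y axis. Col1a1, Col1a2 and Col5a2 (squares) are above Ucma-set and below tendon-set cells. In the 756 members without any tendon-set gene Col1a1 stood at 770 CPM. The 760 CPM of Ucma-set cells covers all of them, with no such limit on tendon-set genes.

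Within the members, cells were set apart by A2m. The 500 members with at least 2 A2m UMIs had a median of 27711 UMIs, and the 745 with 0 had 21082. Of 8967 genes, 174 were at least 2-fold higher in the members with A2m (1.94%) and 293 lower (3.27%). Acta2, smooth muscle actin, stood at 216 CPM in members with A2m and 20.6 CPM in those without (log2 ratio 3.39, 3.23 to 3.56). Nog, the BMP antagonist noggin, stood at 102 CPM in members with A2m and 17.1 CPM in those without, and Cidea, a lipid droplet protein, at 118 CPM in members with A2m and 20.8 CPM in those without. Timp4 stood at 16.04 CPM in members with A2m and 0.798 CPM in those without. Tagln stood at 32.2 CPM in members with A2m and 9.75 CPM in those without (log2 ratio 1.72, 1.46 to 1.99). In members with A2m, 5 cells held 32.9% of the Tagln UMIs. Several genes of the contractile list were not 2-fold higher. The log2 ratio was 0.03 for Tpm4, 0.14 for Csrp2, -0.15 for Cnn3, 0.31 for Tpm1 and -1.99 for Tagln2. Acta1, skeletal muscle actin, was high in few cells: it was detected in 40 members in all, and 14 members held 80.9% of its UMIs.

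Members without A2m carried other genes. Dlk1, an imprinted gene whose product resembles Notch ligands, stood at 218 CPM in members with A2m and 841 CPM in those without. Cilp2, an annulus and cartilage matrix protein, stood at 21.1 CPM in members with A2m and 180 CPM in those without. Wif1 stood at 100 CPM in members with A2m and 454 CPM in those without. Col1a1 stood at 918 CPM in members with A2m and 3408 CPM in those without, and 5 of the members with A2m held 58.7% of their Col1a1 UMIs. Of the rule genes, Frzb stood at 1089 CPM in members with A2m and 371 CPM in those without, whereas Efemp1 was level, at 301 CPM in members with A2m and 302 CPM in those without. Lox stood at 1713 CPM in members with A2m and 859 CPM in those without, and Ucma at 685 and 2241 CPM. All 5 genes of their own set were present in 71.8% of members with A2m and 43.5% of those without. The members were thus not uniform in genes that the rule did not use, but this split also followed genes of the rule.

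**Figure D3:**
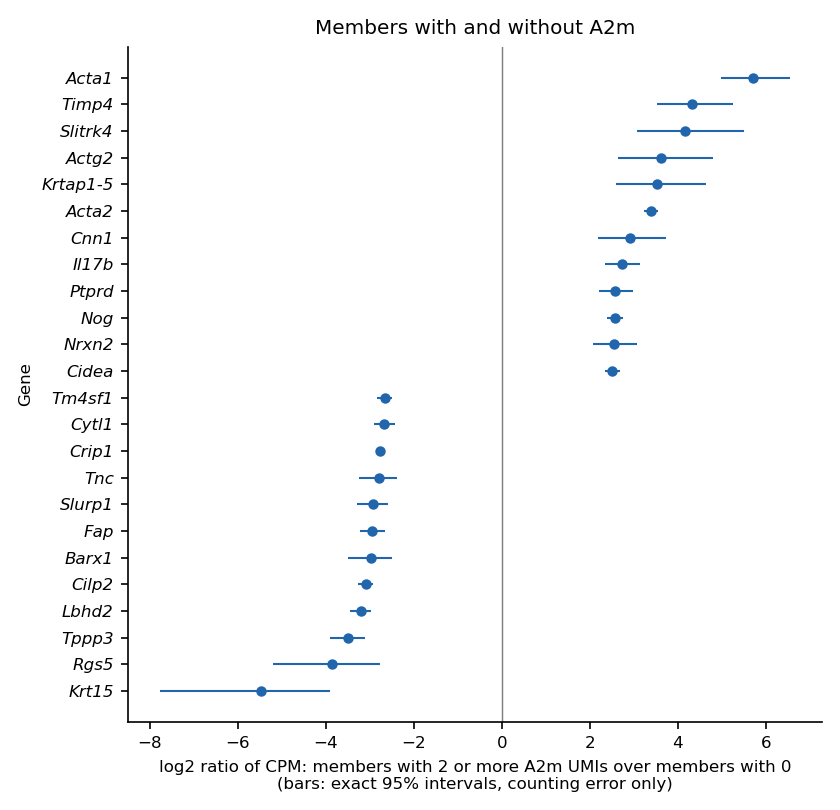
Log2 ratios of CPM of the 12 highest and 12 lowest genes, members with at least 2 A2m UMIs over members with 0, with exact 95% intervals for counting error. Acta1, Acta2, Actg2 and Cnn1 are among the highest, with 5 cells holding 71.9% of the Actg2 and 59.3% of the Cnn1 UMIs of members with A2m, and Lbhd2, Cilp2 and Tnc among the lowest.

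A second axis followed the genes of the tendon set. Members with 0, 1, 2, and 3 or 4 of these genes numbered 756, 461, 158 and 33. Col1a1 stood at 770, 1836, 4854 and 14215 CPM in that order, and median depth at 22442, 22799, 25275 and 35045 UMIs. A2m stood at 210, 94.2, 42.3 and 89.2 CPM and Matn1 at 385, 164, 75.4 and 354 CPM, so both were lowest in members with 2 tendon-set genes. Omd, a gene of the rule, stood at 1458, 1607, 1732 and 1112 CPM. Of 9274 genes, 54 were at least 2-fold higher in members with any tendon-set gene than in those with 0 (0.582%) and 72 lower (0.776%). Along the genes of the Ucma set, Matn1 stood at 1054 CPM in the 67 members with 0 of them, 367 CPM with 1, 274 CPM with 2 and 165 CPM with 3 or 4. Mgp stood at 808 CPM in the 565 members with at least 3 Ucma-set genes and 184 CPM in the 292 with 0 or 1, and Grem1 at 28.5 CPM in the 565 and 72.2 CPM in the 292. In that split, 114 of 8091 genes were at least 2-fold higher (1.41%) and 79 lower (0.976%).

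**Figure D4:**
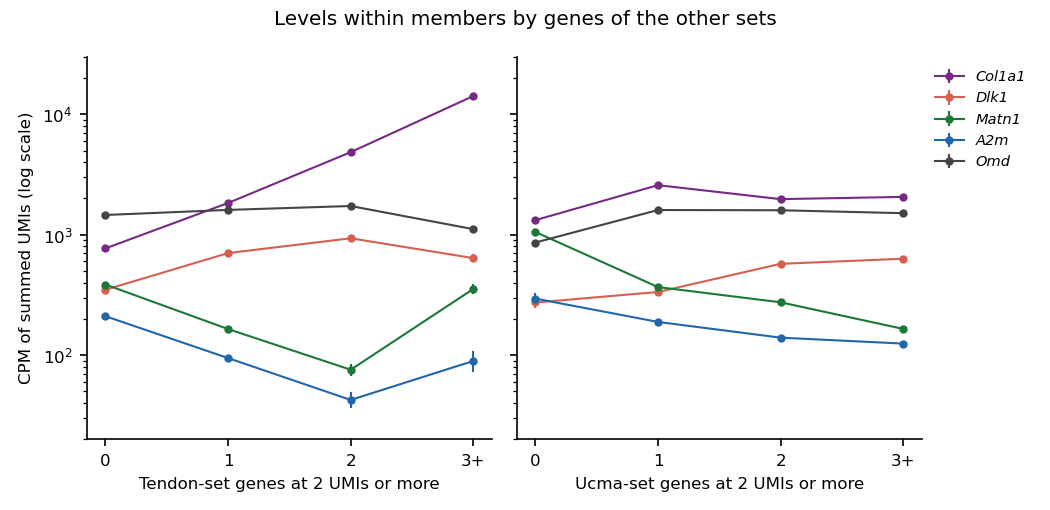
Levels within the members (CPM of summed UMIs, log axis, bars for Poisson 95% intervals) of Col1a1, Dlk1, Matn1, A2m and Omd by the number of tendon-set genes (left) or Ucma-set genes (right) present at 2 UMIs or more. Col1a1 is higher with each further tendon-set gene, and Matn1 lower with each further Ucma-set gene.

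A further split used Ibsp and Mepe, of which 271 members had at least 5 UMIs together and 852 had 0. Median depth was 25989 UMIs in the 271 and 21594 UMIs in the 852. All 5 genes of their own set were present in 67.5% of the 271 and 47.5% of the 852. This split thus also followed depth and genes of the rule. Of 8740 genes, 61 were at least 2-fold higher in the 271 members (0.698%) and 204 lower (2.33%). Alpl stood at 148 CPM in members with Ibsp and Mepe and 25.0 CPM in those without. Wif1 stood at 630 CPM in members with them and 155 CPM in those without, and Spp1 at 1404 CPM in members with them and 451 CPM in those without. The BMP pathway genes Grem1, Gdf5 and Chrdl2 were lower. Grem1 stood at 13.3 CPM in members with Ibsp and Mepe and 68.8 CPM in those without, Gdf5, a joint growth factor, at 2.31 CPM in members with them and 19.8 CPM in those without, and Chrdl2 at 16.03 CPM in members with them and 49.8 CPM in those without. Ibsp was higher in members without A2m, at 97.6 CPM in members with A2m and 474 CPM in those without.

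The fifth comparison set the P10 members against the 532 cells of 8 weeks that met the same rule (8.21% of 6481 kept cells), with a median of 15616 UMIs per cell. The P10 members had 482 of 10297 genes at least 2-fold higher (4.68%) and 2595 lower (25.2%), with a median gene at -0.46. Scaled to the median gene, 992 genes were higher and 1294 lower. Scaled without the 20 most abundant genes, 660 were higher and 1889 lower. Among the most abundant genes, Col2a1 stood at 101500 CPM in P10 members and 38570 CPM in 8-week cells, and Ibsp at 354 CPM in P10 members and 20510 CPM in 8-week cells.

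Imprinted growth genes were higher in P10 members in 10 of 15 and lower in 0 (median 2.24). Dlk1 stood at 551 CPM in P10 members and 1.02 CPM in 8-week cells, a 541-fold difference (log2 ratio 9.08, 8.20 to 10.14). Meg3, which neighbours Dlk1 on chromosome 12, stood at 3883 CPM in P10 members and 418 CPM in 8-week cells. H19 stood at 1494 CPM in P10 members and 58.7 CPM in 8-week cells, and Igf2, its neighbour on chromosome 7, at 27.0 CPM in P10 members and 1.53 CPM in 8-week cells. Mest, Peg3, Cdkn1c and Nnat were also at least 4-fold higher in P10 members, but Gnas stood at 1319 CPM in P10 members and 1341 CPM in 8-week cells.

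Among matrix genes, A2m stood at 146 CPM in P10 members and 2.85 CPM in 8-week cells, and Matn1 at 271 CPM in P10 members and 3.36 CPM in 8-week cells. Cartilage matrix genes were at least 2-fold higher in P10 members in 7 of 19 and lower in 4 (median 0.79), and 12 and 3 once scaled to the median gene. Mfap2, a protein of elastic microfibrils, was 7.20-fold higher in P10 members. Acta2 stood at 107 CPM in P10 members and 4.79 CPM in 8-week cells.

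Genes of mineralised matrix, secreted inhibitors and immune response were lower in P10 members. Of 10 hypertrophic cartilage genes outside the rule 8 were lower and 0 higher (median -1.95). Spp1 stood at 739 CPM in P10 members and 15570 CPM in 8-week cells, and Alpl at 60.0 CPM in P10 members and 1190 CPM in 8-week cells. Osteoblast markers reached 10 UMIs in 14.4% of P10 members and 59.8% of 8-week cells, so cells with such markers moved with the age comparison and their part in it was not tested. Of 8 further Wnt inhibitors 6 were lower and 0 higher (median -2.56), with Wif1 at 286 CPM in P10 members and 1811 CPM in 8-week cells. Of 14 protease inhibitors 10 were lower and 3 higher (median -1.52), with Cst3, cystatin C, at 4297 CPM in P10 members and 21930 CPM in 8-week cells. Myoc, the gene of myocilin, stood at 7.86 CPM in P10 members and 2517 CPM in 8-week cells.

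Chemokines and secreted immune factors were lower in P10 members in 13 of 15 and higher in 0 (median -2.89). Interferon and major histocompatibility class I genes were lower in 10 of 13 and higher in 0 (median -1.49), with H2-D1 at 24.0 CPM in P10 members and 278 CPM in 8-week cells. Immediate early genes, which respond within minutes to stimuli that include tissue dissociation, were lower in 12 of 18 and higher in 0 (median -2.02). Fosb stood at 263 CPM in P10 members and 1906 CPM in 8-week cells, and the part of handling in these differences was not tested.

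**Figure D5:**
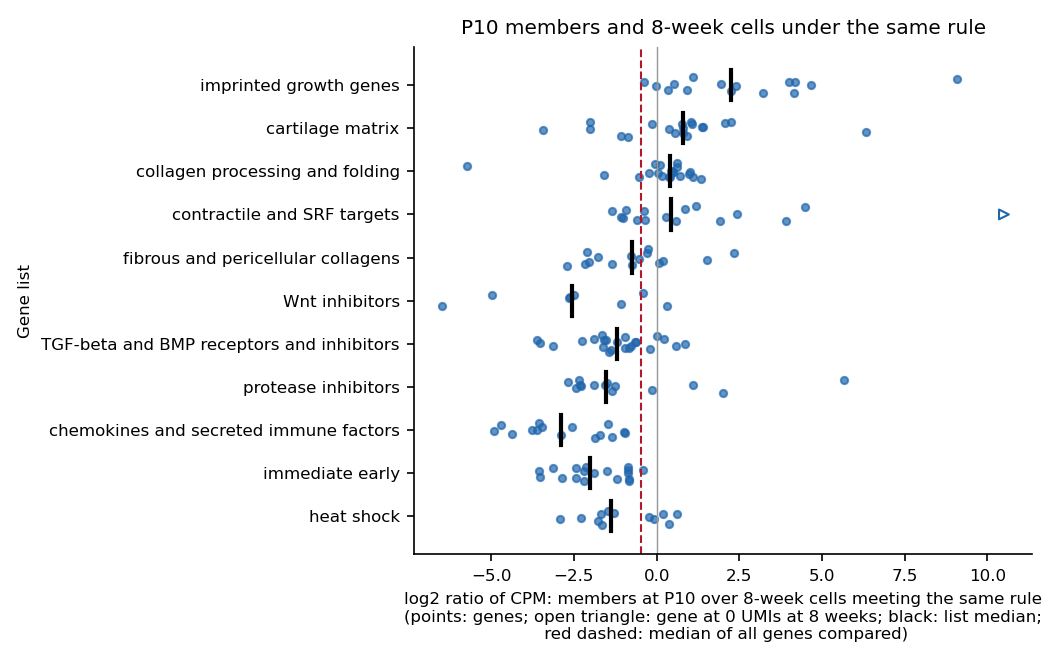
Log2 ratios of CPM, P10 members over 8-week cells under the same rule, for the genes of 11 lists (points; open triangles for genes at 0 UMIs at 8 weeks), with list medians (black) and the median of all genes compared (red dashed, -0.46). Imprinted growth genes lie mostly to the right of the dashed line, and chemokines and immediate early genes to its left.

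Some of the genes that led in the P10 members did so at 8 weeks too. Of the 10 leading P10 genes, 9 could be compared over 8-week Ucma-set cells and 8 were at least 2-fold higher there, with 0 at least 2-fold lower. Among 8766 genes compared at 8 weeks, 5.98% were at least 2-fold higher and 5.94% lower in the cells under the rule than in Ucma-set cells. Over 8-week hypertrophic-set cells 8 of 9 were higher, where 10.4% of 8497 genes were higher and 7.36% lower. Over 8-week tendon-set cells 8 of 9 were higher, where 12.6% of 8224 genes were higher and 4.17% lower. Of the 8 genes highest over tendon-set cells at P10, 5 could be compared at 8 weeks: 4 were at least 2-fold higher there and 1 at least 2-fold lower. Angpt1 stood at 76.5 CPM in P10 members and 59.5 CPM in 8-week cells, Chrdl2 at 37.5 CPM in P10 members and 43.2 CPM in 8-week cells, and Ramp1 at 60.2 CPM in P10 members and 107 CPM in 8-week cells. Grem1 was 11.4-fold lower in P10 members, at 47.4 CPM in P10 members and 542 CPM in 8-week cells.

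The lineage readouts were tdTomato and WPRE4. The tdTomato sequence had 15 UMIs in the 1408 members (0.438 CPM, interval 0.245 to 0.723), against 203 UMIs in all other kept P10 cells (1.88 CPM). Ucma-set cells had 0.377 CPM of it, hypertrophic-set cells 0.158 CPM and tendon-set cells 0.886 CPM. WPRE4, counted by the authors beside the tdTomato sequence and named like the woodchuck virus element found in many transgenes, had 1195 UMIs in the members (34.9 CPM), against 25.6 CPM in Ucma-set, 16.2 CPM in hypertrophic-set and 72.8 CPM in tendon-set cells and 219 CPM in all other kept P10 cells. P10 leukocytes had 80.2 CPM. WPRE4 was thus lower in the members than in leukocytes, and most of it sat in few cells: 1027 members had 0 UMIs, and 15 members with at least 10 UMIs (1.07%) held 54.9% of the UMIs. The share of cells with at least 10 UMIs was 0.296% in Ucma-set cells and 0.584% in tendon-set cells, and 0 hypertrophic-set cells reached 10 UMIs. In all other kept P10 cells together it was 5.01%, above that of the members. Cre had 0 UMIs in the members (exact upper bound 0.108 CPM). Tagln itself stood at 19.4 CPM in the members, 18.0 CPM in Ucma-set, 8.47 CPM in hypertrophic-set and 8.71 CPM in tendon-set cells.

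The P10 matrix held 143203550 UMIs over 7690 barcodes and the 8-week matrix 115097999 UMIs over 7597 barcodes. The libraries shared 12 barcodes, and members shared 0 with the 8-week cells under the rule. At least 10 UMIs of endothelial markers were found in 4 members, of leukocyte markers in 9, of Schwann cell markers in 2 and of nucleus pulposus markers in 8. Mural markers reached that level in 227 members (16.1%), osteoblast markers in 203 (14.4%) and tendon fibroblast markers, most of them part of the rule, in 202 (14.3%). The 4 mural markers summed to 222 CPM in the members, 245 CPM in Ucma-set and 330 CPM in hypertrophic-set cells. Most of the sum in the members came from Cspg4. It stood at 219 CPM in members with at least 2 A2m UMIs and 210 CPM in those with 0. Rgs5, another mural marker, stood at 0.495 and 7.18 CPM in the same groups.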

How the data were processed

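Single cells were profiled on the 10x Genomics platform, and the UMI counts per gene and cell were deposited by the authors as 1 count matrix per age. The counts were made with Cell Ranger 3.1.0, per the file headers. The submitters' processing notes name mm10 and Seurat 3, with no role. Cells with at least 500 genes, 1000 UMIs and at most 15% mitochondrial UMIs were kept. Counts were summed over the cells of a class and divided by the class total to give CPM. Ratios of CPM carry exact conditional binomial intervals, levels exact Poisson intervals and shares exact Clopper-Pearson intervals, all at 95% and for counting error only. A gene was compared where both sums held 100 UMIs or more in total, without the genes of the rule. The count over all 3 P10 classes together also left out mitochondrial, ribosomal protein, hemoglobin, Y-linked and predicted genes, Xist and Tsix. A gene was counted as higher or lower at a 2-fold ratio. Numbers of cells in which a gene was detected came from the full counts, with no allowance for depth. Where thinning is named, shares of cells with a UMI were taken after thinning each cell to 2000 UMIs (seed 7). Cells with fewer than 2000 UMIs were left out of those shares.

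The members and gene lists were chosen with earlier results of these data known. Named genes were the 8 highest and 8 lowest of each comparison by the interval bound nearer to equality, the 10 highest over all 3 P10 classes, and, from every list, the 6 genes or fewer that were most abundant in the members, together with the genes of the rule. Other list members named in the text were chosen after their values were seen. Of 568 list genes 565 were matched. Scrublet in Scanpy 1.11.5 called 0 of 6999 P10 cells, so it had not worked there; no cell was removed, and a score limit of 0.25 was an alternative. The ratio calculation was tested on simulated data. Software was Python 3.11.15, NumPy 2.4.6, SciPy 1.17.1, pandas 2.3.3 and matplotlib 3.10.9. In all, 16 alternatives were tried.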

Additional observations from a re-analysis of the deposited data

How the results depend on the processing

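Over all alternatives, 89 of 126 counts and class sizes stayed within the limits set for them and 37 moved, and of 1096 ratios of named genes 135 moved and 0 changed sign. Of list medians of at least 0.5, the sign changed for 4 of those thinned to 2000 UMIs, 2 with no gene of the other sets and 1 without cells carrying other markers. The class made up 18.76% of kept P10 cells with a gene present at 3 UMIs and 17.66% with 4 genes of a set. Scaled to the median gene, 462 genes were lower than in Ucma-set cells, 639 lower than in hypertrophic-set cells, and 992 higher and 1294 lower than at 8 weeks. In the order Ucma-set, hypertrophic-set, tendon-set and 8-week cells, genes higher and lower numbered 162 and 176, 281 and 319, 417 and 488, and 254 and 653 with cells thinned to 2000 UMIs. With a gene minimum of 1000 UMIs they numbered 162 and 154, 271 and 382, 425 and 416, and 233 and 615. With a minimum of 20 UMIs they numbered 666 and 1460 for Ucma-set, 1541 and 1852 for hypertrophic-set and 810 and 4001 for 8-week cells, and 1883 were higher than in tendon-set cells. These 3 settings change how many genes are compared. In the 25 members with no gene of the other sets they numbered 55 and 155, 40 and 81, 121 and 104, and 138 and 343; fewer cells are summed there. An alternative that left out cells with at least 10 UMIs of nucleus pulposus, endothelial, leukocyte, Schwann, connective fibroblast or erythroid markers, but not of mural or osteoblast markers, was chosen after seeing the data and kept 1373 members. Keeping cells with Xist gave no value, since 0 cells passed. No paired analysis was possible because the samples of an age share 1 matrix with no map from cells to samples, and for the same reason no replicate could be left out.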

Other observations

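Hox genes that pattern the body axis were detected in the members, which pool lumbar and tail discs. Hoxc13, expressed in the tail, stood at 28.3 CPM in 559 members, against 32.8 CPM in Ucma-set, 27.3 CPM in hypertrophic-set and 25.5 CPM in tendon-set cells. Hoxc10 stood at 38.8 CPM in 744 members, against 37.8, 20.4 and 52.1 CPM in the same classes. Of 7 Hox genes of tail levels, 0 were at least 2-fold higher and 0 lower in the members than in Ucma-set cells (median log2 ratio 0.26). Of 9 Hox genes of lumbar levels, 0 were higher and 1 lower (median -0.04).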
